A study of Homo sapiens with 18 samples.

Results

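The genes of the ATF4 arm of the integrated stress response were examined in HEK293 cells, a human embryonic kidney line, treated with a β-adrenergic agonist. The members were a list of 40 genes named from what is known of ATF4 and its targets; no measured value entered the rule, but the list was drawn up with earlier results of these data known. Rows of 38 of the 40 could be summed to genes, and all 38 were among the 15519 genes tested; SESN2, which encodes sestrin 2, and PCK2, the mitochondrial phosphoenolpyruvate carboxykinase, were not analysed here. RNA-Seq had been performed on wildtype cells and on 2 CRISPR-Cas9 derivatives of the line, one lacking β-arrestin1 and β-arrestin2 (β-arrestin1/2 KO) and one lacking Gαs (Gαs KO). The experiment asked how each of these transducers contributes to the nuclear response to the agonist. All groups, controls included, had been transfected with a receptor plasmid and serum starved overnight, and 48 h after transfection they received vehicle (basal) or 1 μM of the agonist isoproterenol (ISO) for 1 h. Each of the 6 groups (wildtype basal, wildtype ISO, β-arrestin1/2 KO basal, β-arrestin1/2 KO ISO, Gαs KO basal and Gαs KO ISO) had 3 biological replicates. Each KO is carried by a derived line of its own, so that the effect of the KO and other differences between lines cannot be told apart.

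In the integrated stress response, kinases that sense amino acid shortage, unfolded protein in the endoplasmic reticulum, double-stranded RNA or heme deficit phosphorylate the initiation factor eIF2. Most translation then falls, while the mRNA of ATF4, a basic leucine zipper factor, is translated more. ATF4 pairs with C/EBP factors and raises genes of amino acid synthesis, amino acid uptake and tRNA charging, together with feedback genes such as PPP1R15A, whose product brings a phosphatase back to eIF2. ATF4 itself is thus governed largely at translation, which RNA-Seq does not measure. Some members, ATF3 and PPP1R15A among them, are also known as immediate early genes that respond to cAMP and growth factor signals.

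Totals ran from 17908597 to 25019834 expected counts per library. Wildtype basal replicate 1 stood apart: the GC content of its genes, weighted by count, was 52.5%, against 49.2 to 50.1% in the other 17 libraries. It was more than 1.2 times the mean of the other wildtype basal libraries for 17 members, whose median GC content was 58.7%, and less than 1/1.2 of that mean for 9 members, whose median was 42.7%. Counts of calls against wildtype basal cells are therefore given with and without this library, and the members whose calls it changes are named. GNAS, which encodes Gαs, was at 1173 to 1364 normalized counts in Gαs KO cells and at 20410 to 33530 in the other groups. ARRB2 was at 291 to 440 in β-arrestin1/2 KO cells and 1370 to 2521 elsewhere, while ARRB1 was at 725 to 832 in β-arrestin1/2 KO cells and 736 to 1249 elsewhere. The HEK293 markers VIM (11830 to 28870) and NEFL (1662 to 6588) were abundant, PAX2, LHX1, INA and NEFM reached at most 233, and the 7 markers of blood, endothelial, fibroblast, liver and basal epithelial cells stayed at or below 27.1.

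Some members need a caution on identity. For ATF4 (chr22:39519695-39522685, plus strand, GRCh38) the sum covers 3 transcripts of GENCODE release 29, of which ATF4-203 held 68.7% of the counts, and transcripts annotated later, if present, were not summed, so that the values below are those of these transcripts and not the level of the whole gene. For SLC3A2, the heavy chain of the amino acid transporters, transcript SLC3A2-201 held 48.7% of the counts but was listed at 0 in wildtype basal replicate 2 and β-arrestin1/2 KO ISO replicate 1. It was at 1677 to 2672 normalized counts in all wildtype ISO, β-arrestin1/2 KO basal and Gαs KO libraries, so the gene sum depends on how reads were assigned. CBS, cystathionine β-synthase, was at 44.5 to 153, while the near-identical copy CBSL held 1114 to 2421. VLDLR, the very low density lipoprotein receptor, was at 0 to 37.9 and CHAC1 at 18.7 to 97.9, so that both carried wide errors.

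The sequence before a start site was read for 33 of the 40 genes from the RefSeq table of GRCh38.p14 (250 bases before the start); those of ALDH1L2, EIF4EBP1, PSPH, NUPR1, SLC7A11, SHMT2 and PYCR1 were not used here. The letters TGATGNAA, the core of the C/EBP-ATF response element that ATF4 binds with a C/EBP partner, were found on either strand before 6 of the 33 (18.2%: ATF3, CHAC1, HERPUD1, ASNS, AARS1 and IARS1), against 3.14% of all 35116 promoters. For 12 of the 31 genes that have both a window and counts, the RefSeq start lies over 100 bases from the start of the most counted transcript, so that their windows may not be the ones in use; of the other 19, 5 (26.3%) held the letters. The full cAMP response element TGACGTCA, the site of CREB, was found before 1 of the 33, PPP1R15A, against 1.65% of all promoters. The RefSeq start of ATF3 lies 43263 bases from the start of ATF3-202, which held 86.3% of its counts, so the window of ATF3 is not the one in use here. The match of ASNS (TGATGAAA, bases -68 to -61 before the RefSeq start) overlaps the start of its most counted transcript. The windows below are those of PPP1R15A and HERPUD1, which rose with ISO in β-arrestin1/2 KO cells, and of CHAC1 and IARS1, lower in a KO line. The matched bases are in capitals, and TTGCATCA is the core read on the opposite strand. The windows end before the start of the most counted transcript and span chr19:48872171-48872391 (plus strand), chr16:56931892-56932141 (plus strand), chr15:40953221-40953437 (plus strand) and chr9:92293698-92293947 (minus strand).

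PPP1R15A: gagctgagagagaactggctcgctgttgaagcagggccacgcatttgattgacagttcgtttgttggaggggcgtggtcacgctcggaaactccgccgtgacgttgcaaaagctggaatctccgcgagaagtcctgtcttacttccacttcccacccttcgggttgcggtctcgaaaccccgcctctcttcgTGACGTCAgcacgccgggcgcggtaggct
HERPUD1: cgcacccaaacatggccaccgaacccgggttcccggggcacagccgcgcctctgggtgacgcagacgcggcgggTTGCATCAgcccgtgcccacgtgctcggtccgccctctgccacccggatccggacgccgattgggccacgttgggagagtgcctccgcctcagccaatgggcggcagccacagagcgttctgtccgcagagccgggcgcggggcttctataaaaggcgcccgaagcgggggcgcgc
CHAC1: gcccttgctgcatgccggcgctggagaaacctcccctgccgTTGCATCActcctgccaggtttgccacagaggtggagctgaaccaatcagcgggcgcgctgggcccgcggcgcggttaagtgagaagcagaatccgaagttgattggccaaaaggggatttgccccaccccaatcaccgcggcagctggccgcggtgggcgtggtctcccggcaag
IARS1: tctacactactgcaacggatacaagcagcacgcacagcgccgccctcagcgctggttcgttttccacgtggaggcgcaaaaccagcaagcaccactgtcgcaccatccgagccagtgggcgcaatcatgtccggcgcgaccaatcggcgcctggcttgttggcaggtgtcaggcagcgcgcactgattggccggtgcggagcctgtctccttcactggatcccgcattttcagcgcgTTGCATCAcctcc

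These matches describe the letters in the windows and do not show that a factor was bound.

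The first question was which members responded to ISO within 1 h. Genes were compared by edgeR's quasi-likelihood test, fitted over the whole table, and called at a Benjamini-Hochberg adjusted p under 0.05. In wildtype cells 1 of the 38 members was called higher and 0 lower, where 0.412% of all genes were called higher and 0.0515% lower. Without wildtype basal replicate 1, 3 members were called higher and 1 lower, where the shares of all genes were 0.831% and 0.266%. In β-arrestin1/2 KO cells 4 members were called higher and 0 lower (0.954% and 0.174% of all genes), and in Gαs KO cells 0 members and 0% of all genes were called. The enzymes, the transporters and the tRNA synthetases, 24 members in all, had 0 calls after ISO in any of the 3 lines with all libraries used. The median log2 fold change of the 38 members was -0.06 for wildtype, 0.02 for β-arrestin1/2 KO and 0.03 for Gαs KO cells, beside medians of all genes of 0.00, -0.01 and 0.00. The wildtype median was 0.01 without wildtype basal replicate 1, so that its sign is not settled.

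ATF3 (chr1:212565334-212620777, plus strand), a leucine zipper factor that is induced by ATF4 and by cAMP and acts mostly as a repressor, gave the largest response in both lines that responded. In wildtype cells it was at 1794, 1719 and 2013 normalized counts at basal and 3419, 3376 and 3415 after ISO. In β-arrestin1/2 KO cells it was at 1316, 1334 and 1535 at basal and then 5255, 4733 and 5293. In Gαs KO cells it was at 1609, 1779 and 1753 at basal and then 1833, 1864 and 1891. The ISO libraries thus lay far above the basal ones in the first 2 lines, and just above them in Gαs KO cells. The log2 fold change was 0.89 ± 0.08 (SE, adjusted p = 7.7e-06) in wildtype cells (1.85-fold), where it was 0.87 without wildtype basal replicate 1. A fit to the 6 wildtype libraries alone gave the same fold change with adjusted p = 0.11. It was 1.87 ± 0.08 (SE, adjusted p = 3.8e-10) in β-arrestin1/2 KO cells (3.65-fold), and 0.12 ± 0.08 (SE, adjusted p = 1) in Gαs KO cells.

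PPP1R15A (chr19:48872392-48876057, plus strand), also known as GADD34, encodes the feedback subunit that directs protein phosphatase 1 to eIF2. It was at 2727, 1640 and 2080 normalized counts in wildtype basal libraries and 2899, 2798 and 2595 after ISO. In β-arrestin1/2 KO cells it went from 2083, 1812 and 2046 to 4800, 4022 and 4612, and in Gαs KO cells it was at 2419, 2458 and 2539 at basal and 2715, 2620 and 2819 after ISO. Basal and ISO libraries overlapped in wildtype cells through basal replicate 1, which was the highest of its group, and did not overlap in the KO lines. The log2 fold change was 1.18 ± 0.13 (SE, adjusted p = 5.5e-05) in β-arrestin1/2 KO cells (2.26-fold). In wildtype cells it was 0.36 ± 0.13 (SE, adjusted p = 0.37), and 0.57 with adjusted p = 0.0024 without basal replicate 1, which makes it a call. The Gαs KO value was 0.14 ± 0.13 (SE, adjusted p = 1).

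HERPUD1 (chr16:56932048-56944863, plus strand) encodes a membrane protein of the endoplasmic reticulum that takes part in protein degradation there. It was at 908, 935 and 978 normalized counts in β-arrestin1/2 KO basal libraries and 1307, 1214 and 1260 after ISO, with no overlap. The wildtype libraries were at 1292, 1255 and 1493 at basal and 1557, 1374 and 1463 after ISO, and the Gαs KO libraries at 1098, 1046 and 1020 at basal and 1179, 1142 and 978 after ISO. In both of these lines the ISO and basal libraries overlapped. The log2 fold change was 0.42 ± 0.09 (SE, adjusted p = 0.021) in β-arrestin1/2 KO cells, 0.12 ± 0.09 (SE, adjusted p = 0.58) in wildtype cells and 0.06 ± 0.09 (SE, adjusted p = 1) in Gαs KO cells. The β-arrestin1/2 KO call was lost when any 1 of the 6 libraries of that line was left out, with log2 fold changes of 0.39 to 0.45 and adjusted p between 0.055 and 0.15.

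The summed ATF4 transcripts were at 1621, 1533 and 1765 normalized counts in wildtype basal libraries and 1050, 1102 and 1310 after ISO. In β-arrestin1/2 KO cells they were at 962, 838 and 877 at basal and then 1682, 1221 and 1292, and in Gαs KO cells at 874, 1013 and 941 at basal and 1014, 926 and 956 after ISO. The ISO libraries were below the basal ones in wildtype cells, above them in β-arrestin1/2 KO cells and among them in Gαs KO cells. The log2 fold change was 0.65 ± 0.12 (SE, adjusted p = 0.0071) in β-arrestin1/2 KO cells, where ATF4-203 went from 544 ± 63.6 to 1019 ± 302 (SD, n = 3) and ATF4-201 from 345 ± 2.1 to 380 ± 69.9. It was -0.51 ± 0.12 (SE, adjusted p = 0.09) in wildtype cells, and -0.52 with adjusted p = 0.044 without basal replicate 1, a call in the opposite direction. The β-arrestin1/2 KO call was lost without basal replicate 2 (adjusted p = 0.058), basal replicate 3 (0.053) or ISO replicate 1 (0.051), with log2 fold changes of 0.49 to 0.63. The Gαs KO value was 0.03 ± 0.12 (SE, adjusted p = 1). These are differences of part of the gene's annotated transcripts.

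The β-arrestin1/2 KO basal libraries also differed slightly from the ISO ones in GC content weighted by count (49.8 to 50.1% against 49.3 to 49.4%). With offsets for GC content and length, ATF3, PPP1R15A, ATF4 and HERPUD1 had log2 fold changes of 1.90, 1.29, 0.73 and 0.43 there and were all called.

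**Figure D1:**
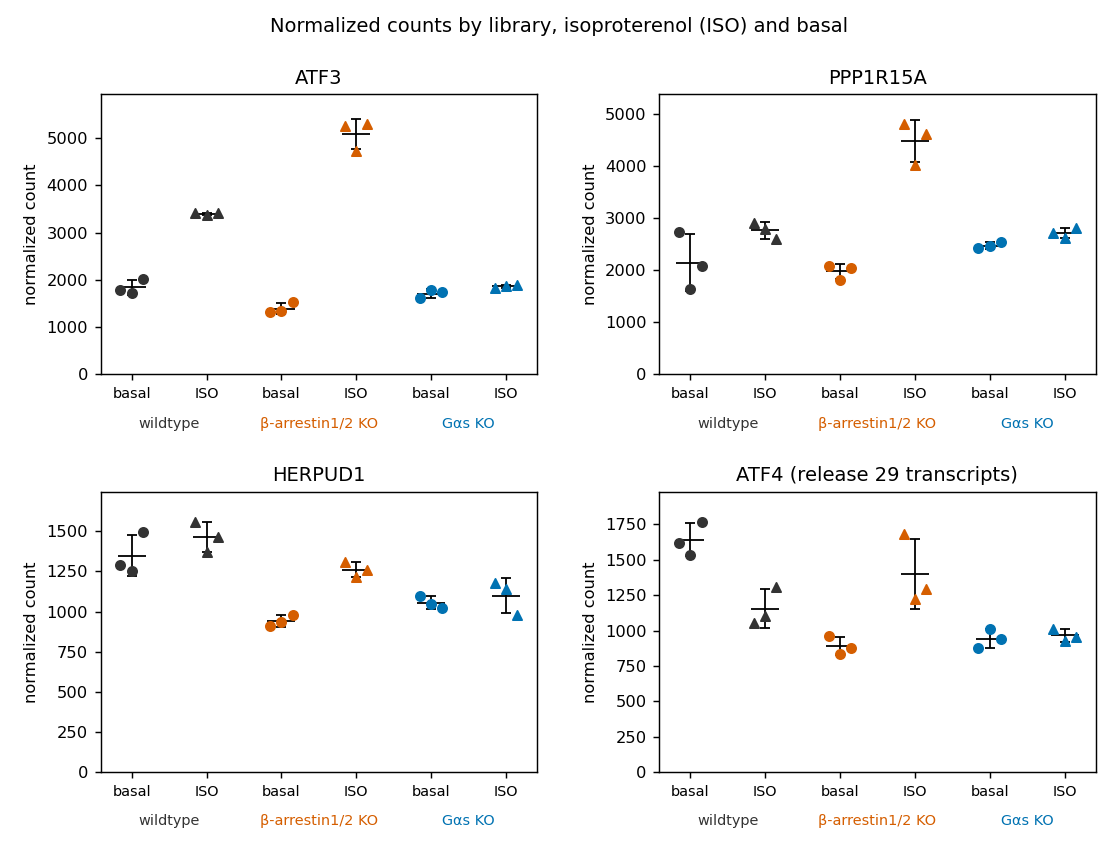
Normalized counts (vertical axis, from 0) of the 4 members called after ISO, for each library of the 6 groups; circles are basal and triangles ISO libraries, and bars give the mean and SD of 3 replicates. ATF3 rose to between 4733 and 5293 in β-arrestin1/2 KO cells and to between 3376 and 3419 in wildtype cells, while the Gαs KO libraries stayed between 1609 and 1891.

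The other transcription factors did not pass the test after ISO. DDIT3 (CHOP), a factor of prolonged stress, had log2 fold changes of -0.42, -0.21 and 0.06 in wildtype cells and in cells lacking the β-arrestins or Gαs, in that order. ATF5, an ATF4-like factor, was between -0.17 and -0.02. CEBPG, a C/EBP partner of ATF4, was between 0.07 and 0.36, and NUPR1, a small stress-induced chromatin protein, was between -0.62 and 0.12. Among the effectors, TRIB3, a pseudokinase that binds ATF4, was between -0.30 and -0.02. The cystathionine γ-lyase CTH had differences of 0.35 and 0.45 in the wildtype line and the β-arrestin1/2 KO line, and one that rounds to 0 in the Gαs KO line. On leaving out basal replicate 1, the wildtype values of DDIT3, ATF5 and CEBPG were -0.23, 0.06 and 0.01, and those of NUPR1, TRIB3 and CTH 0.48, -0.03 and 0.23; none was called, and that of ATF5 changed sign. SLC3A2 was at 0.52 in wildtype cells, and 0.96 with adjusted p = 0.034 without basal replicate 1. It was at -0.58 in β-arrestin1/2 KO cells, and the transcript listed at 0 in 2 libraries makes both values uncertain.

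**Figure D2:**
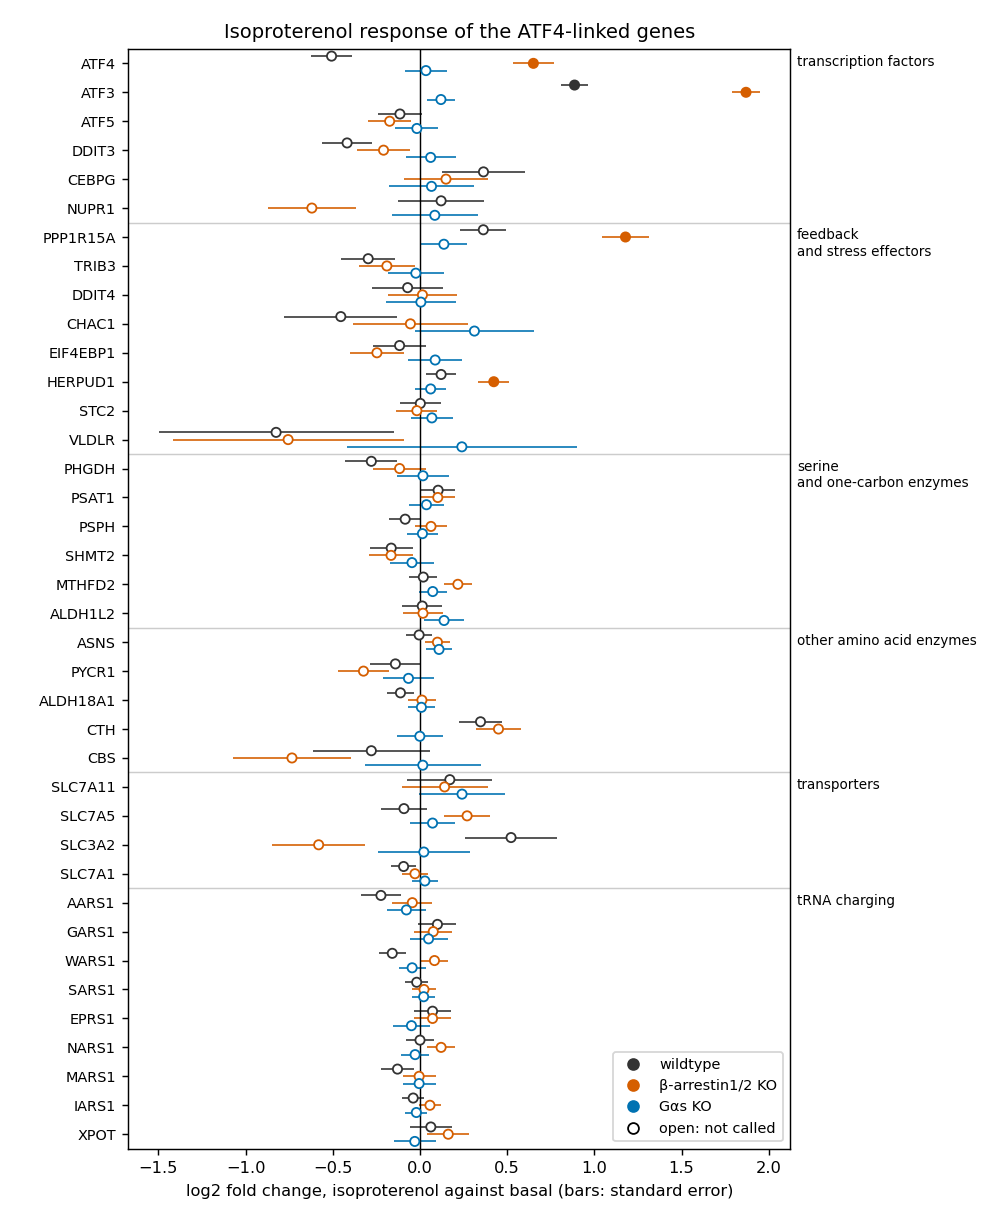
Log2 fold change of ISO against basal (horizontal axis, bars are standard errors) of the 38 members, grouped by role, in wildtype (black), β-arrestin1/2 KO (orange) and Gαs KO cells (blue); filled points passed the test. Filled points are ATF3 in wildtype cells and ATF3, PPP1R15A, ATF4 and HERPUD1 in β-arrestin1/2 KO cells, and the Gαs KO points lie between -0.08 and 0.31.

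Whether the responses differed between lines was tested as an interaction. Between β-arrestin1/2 KO and wildtype cells 2 members were called with a higher response and 0 with a lower one, where 0.142% and 0.0258% of all genes were called. The difference was 0.98 ± 0.11 (SE, adjusted p = 8.9e-04) for ATF3, that is a response 1.98 times as large in β-arrestin1/2 KO cells, and 1.16 ± 0.17 (SE, adjusted p = 0.005) for the summed ATF4 transcripts. In a fit to the 12 libraries of these lines alone the adjusted p of ATF4 was 0.08. For PPP1R15A it was 0.81 ± 0.18 (SE, adjusted p = 0.14), and for HERPUD1 0.30 ± 0.12 (SE, adjusted p = 0.76), so that neither was called. Without wildtype basal replicate 1 the calls were 5 higher (ATF4, ATF3, PPP1R15A, NARS1 and XPOT) and 5 lower (NUPR1, EIF4EBP1, SHMT2, PYCR1 and SLC3A2), where 4.4% and 3.85% of all genes were called. PPP1R15A then had a difference of 0.61 with adjusted p = 0.01, and ATF3 had 1.00 with adjusted p = 5.0e-05.

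Between Gαs KO and wildtype cells 1 member was called with a lower response and 0 with a higher one, where 0.155% and 0.00644% of all genes were called. This was ATF3, whose difference was -0.77 ± 0.11 (SE, adjusted p = 0.0041), and -0.74 without wildtype basal replicate 1. The difference of PPP1R15A was -0.23 ± 0.18 (SE, adjusted p = 0.89), and that of the summed ATF4 transcripts was 0.54 ± 0.17 (SE, adjusted p = 0.69). In Gαs KO cells 0 of the 38 members had an unadjusted p under 0.05, beside 163 of all genes, and DESeq2's Wald test called 9 of all genes. The 2 interaction tests share the wildtype libraries.

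At basal the 2 KO lines were each set against wildtype cells. In β-arrestin1/2 KO cells 23 of the 38 members were called lower and 1 higher, where 17.9% of all genes were called lower and 15.7% higher. The median log2 difference of the members was -0.36, against 0.02 over all genes. The 23 were 3 of 6 transcription factors, 3 of 8 effectors, 4 of 6 serine and one-carbon enzymes, 4 of 5 other amino acid enzymes, 3 of 4 transporters and 6 of 9 genes of tRNA charging. Without wildtype basal replicate 1, 26 were called lower and 3 higher, where the shares of all genes were 23.7% and 23.1%, and the median of the members was -0.30. The calls gained were CEBPG, PSAT1 and EPRS1, lower, and ATF5 and CBS, higher. The CBS call did not extend to its near-identical copy CBSL. Leaving out ATF4, SLC3A2 and CBS gave 22 lower and 1 higher of 35.

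In Gαs KO cells 21 members were called lower and 1 higher, where 17.1% and 14.2% of all genes were called. The median was -0.45, against 0.01 over all genes. The 21 were 1 of 6 transcription factors, 5 of 8 effectors, 5 of 6 serine and one-carbon enzymes, 4 of 5 other amino acid enzymes, 2 of 4 transporters and 4 of 9 genes of tRNA charging. Without wildtype basal replicate 1, 24 were called lower and 4 higher, where the shares were 24% and 21.9%, and the median was -0.41. The calls gained were CEBPG, SLC7A11 and IARS1, lower, and ATF5, PPP1R15A and SLC3A2, higher. Leaving out ATF4, SLC3A2 and CBS gave 20 lower and 1 higher of 35. Both comparisons use the same wildtype libraries, so their values are given side by side and not as separate evidence.

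**Figure D3:**
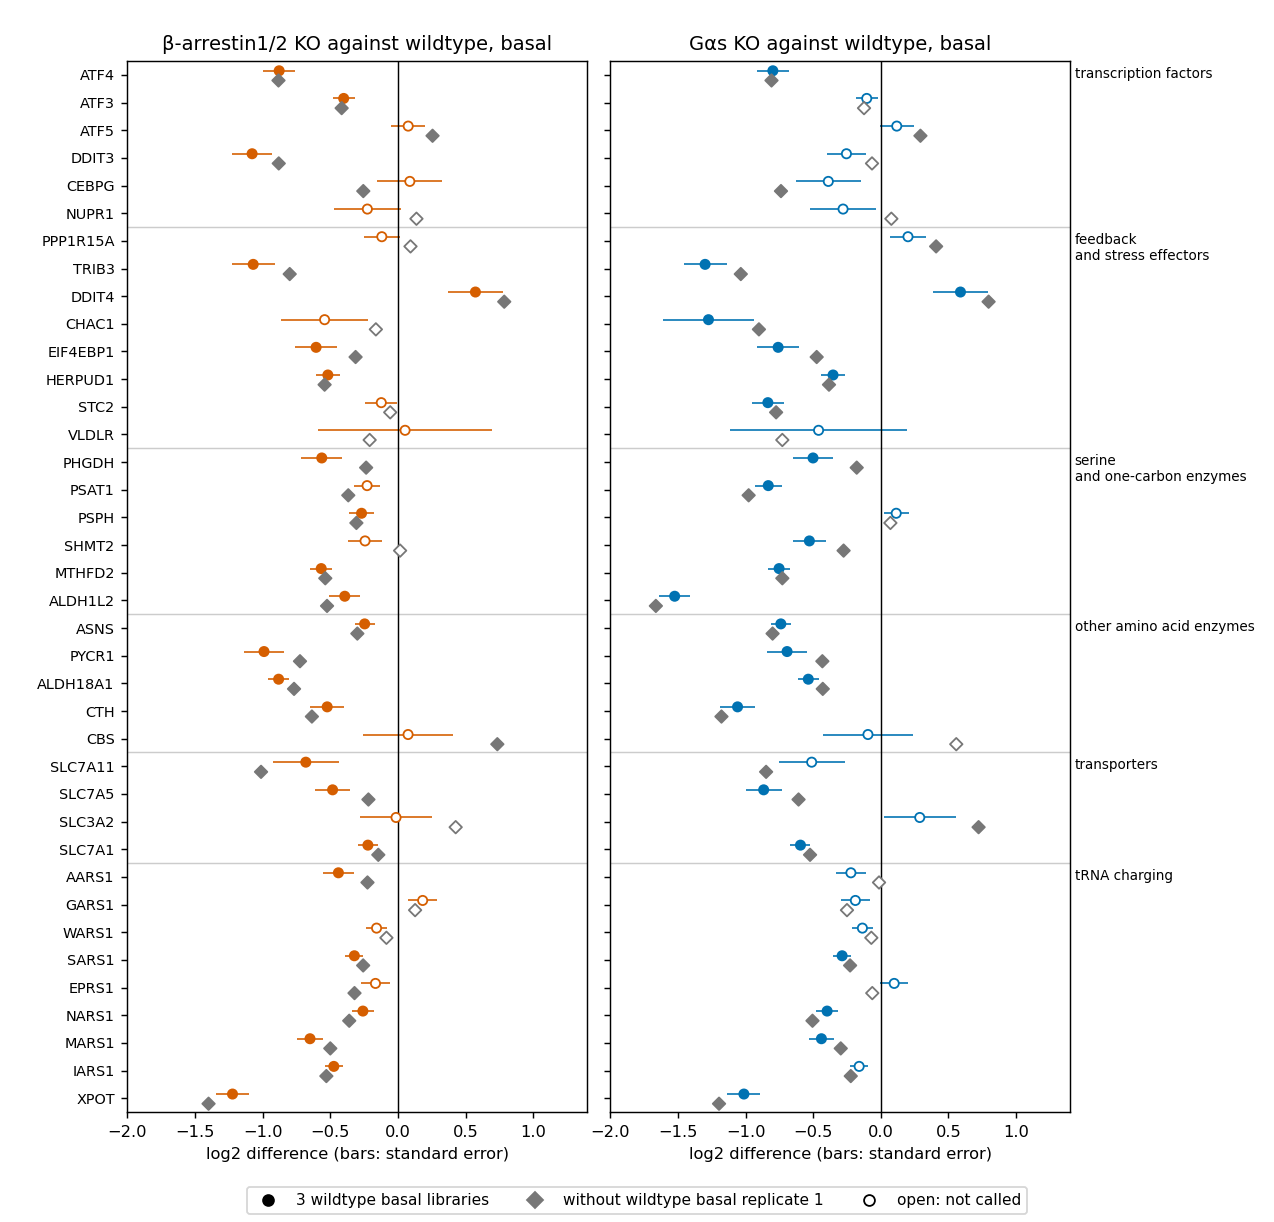
Log2 difference at basal (horizontal axes, bars are standard errors) of β-arrestin1/2 KO (left) and Gαs KO cells (right) against wildtype cells for the 38 members; circles use all 3 wildtype basal libraries, grey diamonds leave out wildtype basal replicate 1, and filled symbols passed the test. Most points lie left of 0 on both sides, and DDIT4 is right of 0 in both, at 0.57 and 0.59.

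Among the transcription factors, the summed ATF4 transcripts were lower in both lines in the 9 basal libraries whose counts stand above. The difference was -0.88 ± 0.12 (SE, adjusted p = 3.3e-05) in β-arrestin1/2 KO and -0.80 ± 0.12 (SE, adjusted p = 8.2e-05) in Gαs KO cells. DDIT3 was at 735, 474 and 559 normalized counts in wildtype, 293, 291 and 254 in β-arrestin1/2 KO and 517, 486 and 480 in Gαs KO basal libraries. The β-arrestin1/2 KO libraries were below all others, with -1.08 ± 0.15 (SE, adjusted p = 4.0e-05), while the Gαs KO libraries overlapped the wildtype ones, with -0.25 ± 0.14 (SE, adjusted p = 0.2). ATF3 was lower in β-arrestin1/2 KO cells before ISO, with -0.40 ± 0.08 (SE, adjusted p = 0.0011), and had -0.10 in Gαs KO cells. ATF5, CEBPG and NUPR1 were not called in either line. ATF5 was higher in both without wildtype basal replicate 1, by 0.26 (adjusted p = 0.04) in β-arrestin1/2 KO and 0.29 (adjusted p = 0.02) in Gαs KO cells. For CEBPG, wildtype basal replicate 1 was at 747 and the other wildtype basal libraries at 2033 and 2164, and without that library its differences were -0.26 and -0.74, both called.

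Among the feedback genes and effectors, TRIB3 was at 1338, 705 and 964 normalized counts in wildtype, 464, 494 and 474 in β-arrestin1/2 KO and 393, 412 and 418 in Gαs KO basal libraries. All KO libraries were below all wildtype libraries, with -1.07 ± 0.16 (SE, adjusted p = 7.8e-05) and -1.30 ± 0.16 (SE, adjusted p = 1.3e-05). Without wildtype basal replicate 1, its highest library, these were -0.80 and -1.03. EIF4EBP1, the translation repressor 4E-BP1, was at 1962, 1066 and 1298 in wildtype, 1031, 919 and 896 in β-arrestin1/2 KO and 824, 908 and 825 in Gαs KO libraries, with -0.60 ± 0.15 (SE, adjusted p = 0.0065) in β-arrestin1/2 KO and -0.76 ± 0.15 (SE, adjusted p = 0.0014) in Gαs KO cells; without that library the values were -0.31 and -0.47. CHAC1, which degrades glutathione, was at 97.8, 61.3 and 42.5 in wildtype, 50.3, 41.9 and 46.5 in β-arrestin1/2 KO and 18.7, 31.8 and 32.6 in Gαs KO libraries. It was called in Gαs KO cells, with -1.27 ± 0.33 (SE, adjusted p = 0.0081), and had -0.54 in β-arrestin1/2 KO cells, at counts under 100; without wildtype basal replicate 1 these were -0.90, still called, and -0.16. STC2, the secreted stanniocalcin 2, was at 745, 602 and 712 in wildtype, 676, 548 and 668 in β-arrestin1/2 KO and 384, 409 and 361 in Gαs KO libraries, with -0.83 ± 0.12 (SE, adjusted p = 5.8e-05) in Gαs KO cells and -0.12, not called, in β-arrestin1/2 KO cells. DDIT4 (REDD1), an inhibitor of mTORC1, moved the other way: it was at 838, 557 and 584 in wildtype, 1189, 722 and 1039 in β-arrestin1/2 KO and 1010, 1050 and 919 in Gαs KO libraries, with 0.57 ± 0.20 (SE, adjusted p = 0.037) and 0.59 ± 0.20 (SE, adjusted p = 0.035). The β-arrestin1/2 KO libraries of DDIT4 overlapped the wildtype ones. HERPUD1 was lower in both lines (-0.52 and -0.35), and PPP1R15A and VLDLR were called in neither. PPP1R15A was called higher in Gαs KO cells without wildtype basal replicate 1, at 0.41 (adjusted p = 0.0014), and with offsets for GC content and length, at 0.31.

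Among the enzymes of serine and one-carbon metabolism, ALDH1L2, the mitochondrial formyltetrahydrofolate dehydrogenase, gave the largest basal difference of any member. It was at 1087, 1579 and 1405 normalized counts in wildtype, 1008, 1097 and 994 in β-arrestin1/2 KO and 466, 485 and 463 in Gαs KO basal libraries. The Gαs KO libraries were far below the others, with -1.52 ± 0.12 (SE, adjusted p = 8.7e-08), and the β-arrestin1/2 KO libraries, with -0.39, overlapped the wildtype ones through replicate 1. PSAT1, the phosphoserine aminotransferase, was at 1720, 2349 and 2446 in wildtype, 1806, 1843 and 1911 in β-arrestin1/2 KO and 1286, 1215 and 1159 in Gαs KO libraries, with -0.83 ± 0.10 (SE, adjusted p = 1.0e-05) in Gαs KO cells and -0.23 ± 0.10 (SE, adjusted p = 0.087) in β-arrestin1/2 KO cells, where it was -0.37 and called without wildtype basal replicate 1. MTHFD2, a mitochondrial enzyme of the folate cycle, was at 3508, 3346 and 3328 in wildtype, 2114, 2416 and 2341 in β-arrestin1/2 KO and 1922, 2012 and 2114 in Gαs KO libraries. The 3 wildtype libraries of MTHFD2 lay close together, replicate 1 included, and both KO lines were below them, with -0.57 and -0.75. PHGDH, which makes the first step from glycolysis to serine, had -0.56 and -0.50, but -0.23 and -0.18 without wildtype basal replicate 1, where it stood at 9302 against 5012 and 5594 in the other libraries; all 4 were called. SHMT2, the mitochondrial serine hydroxymethyltransferase, was called in Gαs KO cells (-0.53, and -0.28 without that library). PSPH, the last enzyme of serine synthesis, was called in β-arrestin1/2 KO cells (-0.27).

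Among the other enzymes, PYCR1, which makes proline in mitochondria, was at 3392, 1971 and 2274 normalized counts in wildtype, 1343, 1146 and 1359 in β-arrestin1/2 KO and 1495, 1667 and 1563 in Gαs KO basal libraries. The difference was -0.99 ± 0.15 (SE, adjusted p = 7.7e-05) in β-arrestin1/2 KO and -0.69 in Gαs KO cells, and -0.72 and -0.43 without wildtype basal replicate 1. ALDH18A1, the enzyme before it on the route to proline, was at 6677, 5285 and 5523 in wildtype, 2999, 3260 and 3229 in β-arrestin1/2 KO and 3944, 4162 and 3950 in Gαs KO libraries, with -0.88 ± 0.08 (SE, adjusted p = 4.7e-07) and -0.54. CTH, which makes cysteine, was at 254, 322 and 341 in wildtype, 201, 210 and 227 in β-arrestin1/2 KO and 153, 139 and 148 in Gαs KO libraries, lowest in the Gαs KO libraries, with -1.06 ± 0.13 (SE, adjusted p = 1.2e-05) there and -0.52 in β-arrestin1/2 KO cells. ASNS, the asparagine synthetase, was at 1755, 1943 and 2049 in wildtype, 1539, 1690 and 1617 in β-arrestin1/2 KO and 1137, 1215 and 1092 in Gαs KO libraries, with -0.25 and -0.74. These 4 enzymes were called lower in each line, and CBS in neither. Without wildtype basal replicate 1 CBS was called higher in β-arrestin1/2 KO cells, at 0.73 (adjusted p = 0.027). Its near-identical copy CBSL was at 1431 and 1492 in the other wildtype basal libraries and 1263, 1269 and 1304 in β-arrestin1/2 KO ones. The copy with most of the counts was thus lower there, so the CBS call does not hold for both copies.

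Among the transporters, SLC7A5, the large neutral amino acid carrier LAT1, was at 7491, 4422 and 4987 normalized counts in wildtype, 4025, 3870 and 4198 in β-arrestin1/2 KO and 3098, 3086 and 3087 in Gαs KO basal libraries, with -0.87 ± 0.13 (SE, adjusted p = 1.1e-04) in Gαs KO cells and -0.48 in β-arrestin1/2 KO cells. The latter was -0.22, still called, without wildtype basal replicate 1. SLC7A11, the cystine carrier xCT, was at 347, 955 and 870 in wildtype, 482, 434 and 437 in β-arrestin1/2 KO and 514, 507 and 501 in Gαs KO libraries. Its lowest wildtype library was replicate 1, below all KO libraries, and the difference was -0.68 ± 0.25 (SE, adjusted p = 0.043) in β-arrestin1/2 KO cells and -0.51 ± 0.24 (SE, adjusted p = 0.13) in Gαs KO cells. Without that library it was -1.01 and -0.85, both called. SLC7A1, the cationic amino acid carrier, was called lower in both lines (-0.22 and -0.59, and -0.14 and -0.52 without that library). SLC3A2 was called in neither with all libraries, and higher in Gαs KO cells without that library, at 0.72 (adjusted p = 0.0093).

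In tRNA charging, XPOT, the exporter of tRNA from the nucleus, changed most. It was at 7275, 11520 and 11110 normalized counts in wildtype, 4047, 4516 and 4250 in β-arrestin1/2 KO and 4969, 4807 and 5054 in Gαs KO basal libraries, with all 6 KO libraries below all wildtype ones. The difference was -1.22 ± 0.12 (SE, adjusted p = 1.6e-06) and -1.01 ± 0.12 (SE, adjusted p = 1.1e-05), and -1.40 and -1.20 without wildtype basal replicate 1. MARS1, the methionyl-tRNA synthetase, was at 4341, 3152 and 3448 in wildtype, 2178, 2412 and 2384 in β-arrestin1/2 KO and 2798, 2657 and 2616 in Gαs KO libraries, with -0.65 ± 0.09 (SE, adjusted p = 6.7e-05) in β-arrestin1/2 KO and -0.44 in Gαs KO cells. NARS1 (-0.26 and -0.40) and SARS1 (-0.32 and -0.29), the synthetases for asparagine and serine, were called lower in each line. IARS1 (-0.47) and AARS1 (-0.44), for isoleucine and alanine, were called lower in β-arrestin1/2 KO cells. GARS1, WARS1 and EPRS1, for glycine, tryptophan and the pair glutamate and proline, were called in neither, with values between -0.19 and 0.18. AARS1, without wildtype basal replicate 1, was at -0.23 in β-arrestin1/2 KO cells, still called, EPRS1 was called lower there (-0.32), and IARS1 was called lower in Gαs KO cells (-0.22).

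**Figure D4:**
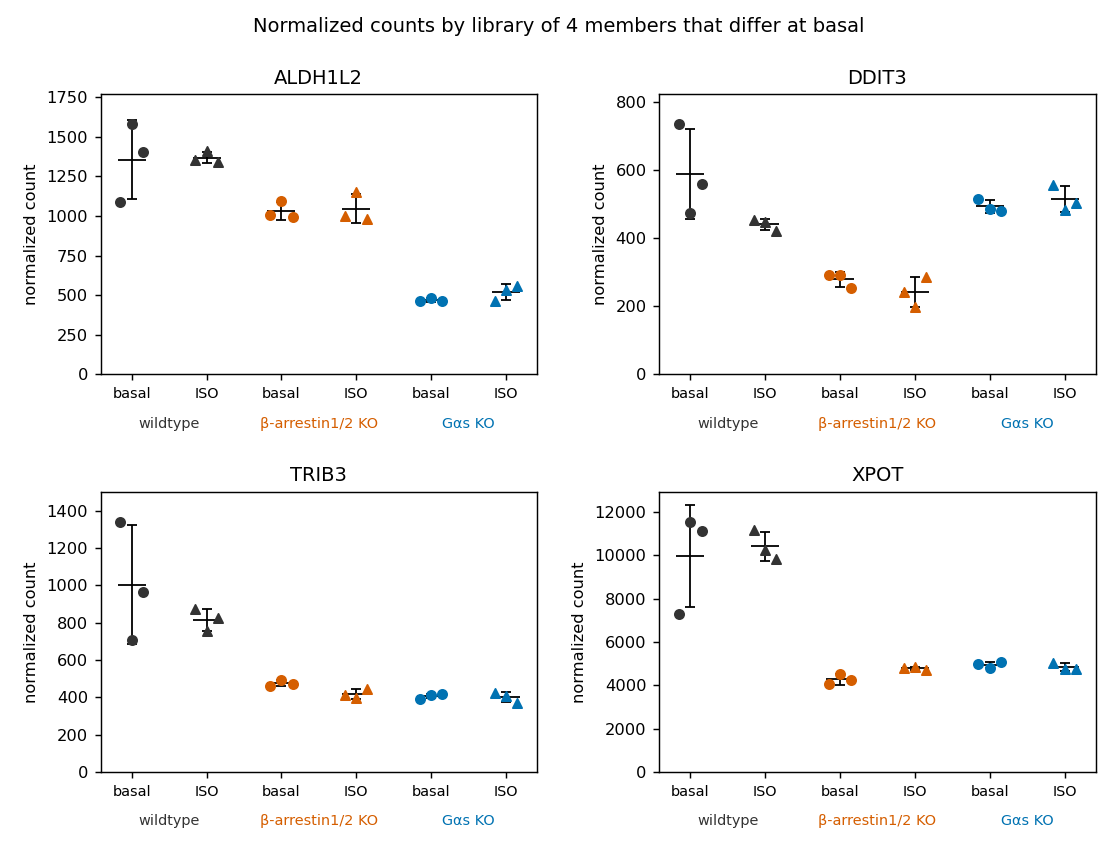
Normalized counts (vertical axes, from 0) of ALDH1L2, DDIT3, TRIB3 and XPOT in each of the 18 libraries; circles are basal and triangles ISO libraries, and bars give the mean and SD of 3 replicates. ALDH1L2 is lowest in Gαs KO cells (463 to 558 over 6 libraries), DDIT3 is lowest in β-arrestin1/2 KO cells (197 to 293), and TRIB3 and XPOT are low in both KO lines.

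The KO lines were then set against each other at basal. The difference holds no wildtype library, but its error was estimated in the fit of all 18 libraries. Of the 38 members, 8 were higher in β-arrestin1/2 KO than in Gαs KO cells and 5 were lower, where 13.8% of all genes were called higher and 12.4% lower. The median of the members was -0.02, against 0.00 over all genes. The higher genes were ALDH1L2, at 1.13 ± 0.12 (SE, adjusted p = 2.1e-06), STC2, at 0.71 ± 0.12 (SE, adjusted p = 2.7e-04), and PSAT1, at 0.60 ± 0.10 (SE, adjusted p = 2.4e-04). CTH followed at 0.54 ± 0.13 (SE, adjusted p = 0.0052) and ASNS at 0.49 ± 0.07 (SE, adjusted p = 9.5e-05). SLC7A5 was higher by 0.38 ± 0.13 (SE, adjusted p = 0.041), SLC7A1 by 0.37 ± 0.07 (SE, adjusted p = 0.0012), and GARS1 by 0.37 ± 0.11 (SE, adjusted p = 0.019).

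The lower genes were DDIT3, at -0.82 ± 0.15 (SE, adjusted p = 5.1e-04), PSPH, at -0.38 ± 0.09 (SE, adjusted p = 0.0048), and ALDH18A1, at -0.34. IARS1 (-0.31) and ATF3 (-0.30) were lower by less. PSPH was at 582, 527 and 602 normalized counts in β-arrestin1/2 KO and 717, 755 and 759 in Gαs KO basal libraries, beside 646, 725 and 689 in wildtype ones. SLC7A1 was at 6542, 5641 and 5700 in wildtype, 4953, 5152 and 5224 in β-arrestin1/2 KO and 3867, 4026 and 3953 in Gαs KO libraries. GARS1 was at 2501, 2361 and 3345 in wildtype, 3052, 3139 and 3125 in β-arrestin1/2 KO and 2375, 2468 and 2363 in Gαs KO libraries. In all 13 called members the libraries of the 2 lines did not overlap. These are the same libraries that gave the calls, and the share over all called genes was not counted. The summed ATF4 transcripts had -0.08 ± 0.12 (SE, adjusted p = 0.68). The 2 transcription factors called, DDIT3 and ATF3, were both lower in β-arrestin1/2 KO cells, while of the 6 serine and one-carbon enzymes 2 were higher there and 1 lower, and of the 5 other amino acid enzymes likewise 2 and 1. A difference between roles was not tested.

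Some basal calls were lost when single libraries were left out. Against wildtype, the β-arrestin1/2 KO call of SLC7A11 was lost on leaving out any library of the pair of groups except wildtype replicate 1 (adjusted p 0.078 to 0.19). That of DDIT4 was lost without wildtype replicate 2 or 3 or KO replicate 1 or 3 (0.099 to 0.16), and that of PSPH without wildtype replicate 2 or 3 or KO replicate 1 or 2 (0.068 to 0.15). NARS1 lost its call without wildtype replicate 2 or 3 or KO replicate 1 or 2 (0.066 to 0.11), SLC7A1 without any of the KO replicates (0.059 to 0.11), ALDH1L2 without wildtype replicate 2 or KO replicate 1 or 3 (0.054 to 0.069), and ASNS without wildtype replicate 3 or KO replicate 1 or 3 (0.051 to 0.082). In Gαs KO cells DDIT4 lost its call on leaving out any library except wildtype replicate 1 (0.055 to 0.11), and PHGDH without Gαs KO replicate 3 (0.058). Between the KO lines SLC7A5 lost its call without any 1 of the 6 libraries (0.062 to 0.11). GARS1 lost it without Gαs KO replicate 1 or 3 (0.055 and 0.059), and ATF3 without β-arrestin1/2 KO replicate 1 or 2 or Gαs KO replicate 2 or 3 (up to 0.063). In fits to the compared groups alone, 14 of 24 β-arrestin1/2 KO and 10 of 22 Gαs KO calls against wildtype were lost. The 14 were ATF3, EIF4EBP1, DDIT4, PHGDH, PSPH, ALDH1L2, ASNS, CTH, SLC7A11, SLC7A5, SLC7A1, AARS1, SARS1 and NARS1 (adjusted p 0.1 to 0.29). The 10 in Gαs KO cells were EIF4EBP1, CHAC1, HERPUD1, DDIT4, PHGDH, SHMT2, PYCR1, MARS1, SARS1 and NARS1 (0.081 to 0.22).

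**Figure D5:**
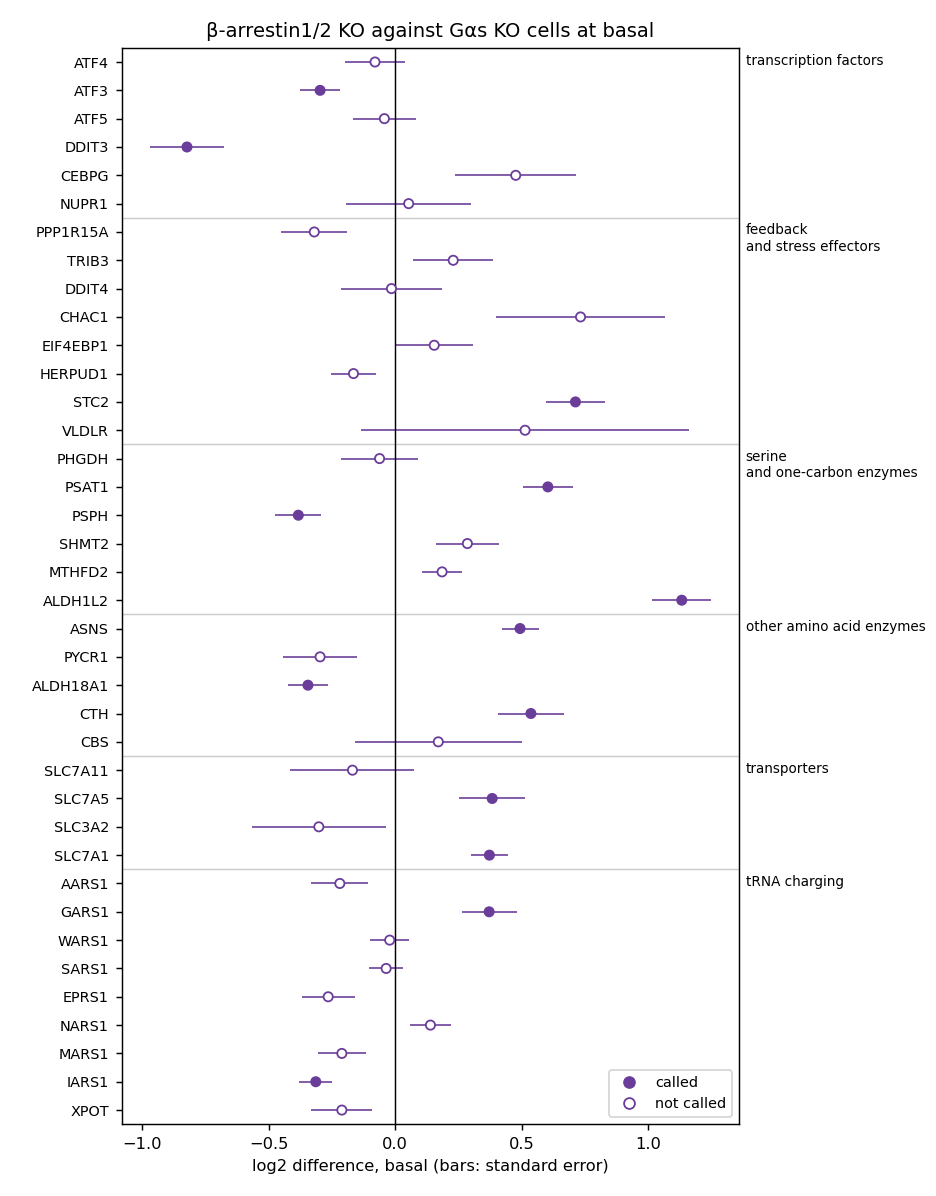
Log2 difference at basal of β-arrestin1/2 KO against Gαs KO cells (horizontal axis, bars are standard errors) for the 38 members by role; filled points passed the test. ALDH1L2 lies farthest right at 1.13 and DDIT3 farthest left at -0.82.

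Beside the members, 4 related lists were examined, whose basal counts stand beside the shares of all genes called: 17.9% lower and 15.7% higher in β-arrestin1/2 KO cells, 17.1% and 14.2% in Gαs KO cells, and 23.7% and 23.1%, and 24% and 21.9%, without wildtype basal replicate 1. Between the KO lines 13.8% of all genes were called higher in β-arrestin1/2 KO cells and 12.4% lower. For the ISO responses, the wildtype line had 0.412% of all genes called higher and 0.0515% lower. When wildtype basal replicate 1 was left out, those shares were 0.831% and 0.266%. The β-arrestin1/2 KO line had 0.954% higher and 0.174% lower after ISO, while the Gαs KO line had 0%. The first list held 17 eIF2 kinases and other genes of the eIF2 machinery. After ISO 0 of the 17 were called in any line; on leaving out wildtype basal replicate 1, PPP1R15B, the constitutive partner of protein phosphatase 1, was called higher in wildtype cells (0.29). At basal 6 were lower and 1 higher in β-arrestin1/2 KO cells and 7 were lower and 1 higher in Gαs KO cells. Without that library these counts were 11 and 1, and 9 and 2. The largest in β-arrestin1/2 KO cells were GCN1, the partner of the kinase GCN2 (-0.66, and -0.42 without that library), EIF2B3 (-0.62) and EIF2B2 (-0.53), subunits of the exchange factor of eIF2. Those in Gαs KO cells were IMPACT, which holds GCN2 back (-0.95), and the eIF2 subunits EIF2S2 (-0.65) and EIF2S3 (-0.63). Between the KO lines 4 were higher in β-arrestin1/2 KO cells and 2 lower, led by IMPACT (0.53), GCN1 (-0.47) and EIF2S3 (0.45).

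The second list held genes of the ATF6 and XBP1 branches of the unfolded protein response, of which HYOU1 was not analysed here and 15 were tested. XBP1, a factor whose mRNA is spliced on endoplasmic reticulum stress, was higher after ISO in β-arrestin1/2 KO cells, with 0.48 ± 0.08 (SE, adjusted p = 0.0021), and was the one gene of the list called after ISO in any line with all libraries; without wildtype basal replicate 1 the chaperone gene DNAJB9 was called higher in wildtype cells (0.47). At basal XBP1 was at 884, 929 and 897 normalized counts in β-arrestin1/2 KO, 1832, 1808 and 1677 in Gαs KO and 2887, 3008 and 3321 in wildtype libraries. The differences were -1.76 ± 0.08 (SE, adjusted p = 1.4e-10) and -0.79 ± 0.07 (SE, adjusted p = 8.6e-07) against wildtype, and -0.97 ± 0.08 (SE, adjusted p = 8.5e-08) between the KO lines. Of the 15, 6 were lower in β-arrestin1/2 KO and 5 in Gαs KO cells and 0 were higher. When that library was left out, 12 and 10 were lower and 0 higher, with HSPA5, the chaperone BiP, among those gained in both lines (-0.56 and -0.53). The response to ISO was then also called higher in β-arrestin1/2 KO than in wildtype cells for 4 of the 15 (0 with all libraries), where 4.4% of all genes were. SDF2L1, a chaperone partner, had -0.99 and -0.92, and -0.47 and -0.41 without that library. CRELD2 had -0.64 (and -0.35) in β-arrestin1/2 KO cells, and ATF6, the sensor, -0.80 in Gαs KO cells and 0.51 between the KO lines, where 1 gene was higher and 1 lower.

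The third list held further genes linked to ATF4, of which SLC7A3 and FGF21 were too low to be tested and 18 were tested. After ISO 2 were higher in β-arrestin1/2 KO cells: GDF15, a secreted stress cytokine, with 1.23 ± 0.27 (SE, adjusted p = 0.029), and VEGFA, the vascular growth factor, with 0.58 ± 0.10 (SE, adjusted p = 0.0034). GDF15 was at 71.3, 65.7 and 64.5 normalized counts at basal and 133, 148 and 193 after ISO. VEGFA was at 849, 812 and 1028 at basal and 1420, 1233 and 1355 after ISO, so that neither gene overlapped between conditions. In wildtype cells 0 of the 18 were called with all libraries and 4 were called higher without wildtype basal replicate 1: JDP2 (1.01), SQSTM1, the autophagy receptor p62 (0.75), VEGFA (0.38) and TNFRSF10B (0.17). The response was then called higher in β-arrestin1/2 KO than in wildtype cells for 3 and lower for 1 (0 and 0 with all libraries), where 4.4% and 3.85% of all genes were. At basal 6 were lower and 1 higher in β-arrestin1/2 KO cells, led by the glutamine carrier SLC1A5 (-0.78), the AP-1 partner JDP2 (0.67) and YARS1 (-0.67). In Gαs KO cells 7 were lower and 0 higher, led by the death receptor TNFRSF10B (-1.21), JDP2 (-1.12) and CEBPB (-0.82). On leaving out that library the counts were 7 lower and 4 higher, and 8 lower and 2 higher. Between the KO lines 4 were higher in β-arrestin1/2 KO cells and 3 lower, led by JDP2 (1.79), TNFRSF10B (1.23) and CEBPB (0.77).

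The last list held 12 cytosolic tRNA synthetases outside the members, 4 of which (CARS1, TARS1, YARS1 and LARS1) were also in the third. VARS1, for valine, was the one gene called after ISO, lower in β-arrestin1/2 KO cells with -1.25 ± 0.23 (SE, adjusted p = 0.0075), from 1039, 571 and 714 normalized counts to 397, 373 and 203. Its difference from the wildtype response was -1.82 ± 0.32 (SE, adjusted p = 0.021). At basal 6 were lower and 1 higher in β-arrestin1/2 KO cells, led by FARSA (-0.74), YARS1 (-0.67) and LARS1 (-0.64), and 4 were lower and 0 higher in Gαs KO cells, led by LARS1 (-0.80), FARSA (-0.72) and YARS1 (-0.40). The counts without wildtype basal replicate 1 were 8 lower and 3 higher, and 7 lower and 1 higher, and FARSA was at -0.39 and -0.38. Between the KO lines 2 were higher in β-arrestin1/2 KO cells, CARS1 (0.46) and RARS1 (0.35), and 1 was lower, YARS1 (-0.27).

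Per kilobase of transcript, the members ranged widely in wildtype basal cells. PHGDH (3305 normalized counts per kb) and SHMT2 (2896) were highest, followed by SARS1 (2146), while NUPR1 (27.8) and VLDLR (2.48) were lowest. ATF3 stood at 976 and PPP1R15A at 908. These means include wildtype basal replicate 1. There PHGDH was at 9302 normalized counts, against a mean of 5303 in the other wildtype basal libraries, and SHMT2 at 9122, against 5780.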

How the data were processed

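RNA-Seq libraries (poly(A) RNA, 150-bp read pairs) of 6 groups with 3 labelled biological replicates each were used, and p-values measure the spread between these replicates. The table the authors deposited holds expected counts: Salmon 1.7.0 estimates, transcript by transcript, of how many read pairs each library gave (the submitters' processing notes also name DESeq2 and GRCh38), unnormalized; 0 sample columns were left unused. Transcripts (161798 of 184844) were joined by identifier to GENCODE release 29 and summed to 34255 genes, which held 92.9 to 93.7% of the counts, and sums were rounded. In edgeR 4.0.16 (R 4.3.3), libraries were scaled by TMM, genes filtered by group (15519 left) and all 18 libraries fitted with a coefficient per group. Adjusted p under 0.05 (quasi-likelihood test, Benjamini-Hochberg) was a call, over 8 comparisons. Normalized counts are TMM-scaled counts per library of average size. Standard errors were derived from the F statistic.

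All members are named. Full statistics follow calls after ISO, the 10 largest called basal differences and ATF4. Of the 4 related lists, genes called after ISO and the 3 largest called at basal are named. The members, lists and tests were chosen with earlier results of these data known. Alternatives were other scalings, DESeq2 1.42.0, no filter, the compared groups alone, lowess offsets (span 0.3) for GC and length, a replicate block and left-out replicates. In simulated data with 200 of 15269 genes changed 3-fold in wildtype cells, 88.5% were recovered and 8 unchanged genes called. These data held no differences between lines and no library like wildtype basal replicate 1, and changes below 3-fold were not simulated. Same-numbered libraries did not deviate together (correlations -0.0931 to 0.0657), so libraries were treated as unpaired. The level of 1 further gene, which is no member, is not reported here. Figures used Python 3.11.15 and matplotlib 3.10.9.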

Additional observations from a re-analysis of the deposited data

Results flagged for a closer look

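Responses to ISO differed between lines for a pair of members by the interaction test of edgeR's quasi-likelihood fit. For the summed ATF4 transcripts the response was higher in β-arrestin1/2 KO than in wildtype cells by 1.16 on the log2 scale (adjusted p = 0.005). In wildtype cells the mean of ATF4-203 fell after ISO and that of ATF4-201 rose. For ATF3 the response was higher in β-arrestin1/2 KO cells by 0.98 (adjusted p = 8.9e-04), and in Gαs KO cells it differed from the wildtype response by -0.77 (adjusted p = 0.0041). The 3 ISO libraries lay above the 3 basal ones for ATF3 in each line.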

How the results depend on the processing

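Of 67 differences of single members called, 36 were called with the same sign under all alternatives run and 0 changed sign. The number of members called moved by over 1.5 times in the fits below, while for left-out replicates the full ranges are given. With only the groups compared it was 0 for ISO in wildtype cells (1 with all libraries), 9 for ISO in β-arrestin1/2 KO cells (4), 1 for the β-arrestin1/2 KO response difference (2), 10 and 12 for the basal comparisons of the β-arrestin1/2 KO line and the Gαs KO line with wildtype (24 and 22), and 26 between the KO lines (13). In these fits, wildtype basal replicate 1 enters the spread of both basal comparisons with wildtype but not that between the KO lines. In the main fit the spread was estimated over all 18 libraries. Counts over all genes moved as well. Between the KO lines the groups alone gave 3590 higher and 3582 lower of 14890 genes, against 2145 and 1919 of 15519. For ISO in β-arrestin1/2 KO cells they gave 725 and 436 of 14627, against 148 and 27. For ISO in wildtype cells they gave 12 and 1 of 14401, against 64 and 8. For the β-arrestin1/2 KO response difference they gave 10 and 0 of 15127, against 22 and 4. Against wildtype at basal they gave 727 and 774 of 14586 for β-arrestin1/2 KO and 663 and 924 of 14722 for Gαs KO. With offsets for GC content and length, 2 members were called for ISO in wildtype cells and 5 for the β-arrestin1/2 KO response difference. Between the KO lines 22 were called, where 3259 and 3417 of all 15519 genes were called higher and lower. DESeq2's Wald test called 2 members for ISO in wildtype cells, 1 higher and 1 lower, where 121 and 66 of 15508 genes were called. Leaving out 1 replicate gave 1 to 4 for ISO in wildtype, 2 to 3 in β-arrestin1/2 KO and 0 to 0 in Gαs KO cells. For the response differences of the β-arrestin1/2 KO line and the Gαs KO line it gave 2 to 10 and 1 to 1. For the basal comparisons in the order above it gave 17 to 29, 20 to 28 and 10 to 12. The highest values against wildtype were those without wildtype basal replicate 1, whose shares of all genes stand above. Of these ranges, those of the Gαs KO responses and of the basal comparisons stayed within 1.5 times. The 17 came without β-arrestin1/2 KO basal replicate 1, where 2020 of 15816 genes were called higher and 2178 lower. The 20 and 10 came without Gαs KO basal replicate 3. Of 15807 genes, 1615 and 2085, and 1680 and 1394, were then called higher and lower. Where no value is given, the cause was not tested. Counts of the 4 related lists moved by over 1.5 times in 92 of 496 cases.

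Same-numbered libraries share only a number. Under a replicate block the counts of members called were 1, 4 and 0 after ISO, 2 and 1 for the response differences, and 23, 22 and 13 at basal. The block lost 1 call, SLC7A11 in β-arrestin1/2 KO cells (adjusted p = 0.061). With GC and length offsets and the replicate block together, the counts were 2 for ISO in wildtype cells, 4 for the β-arrestin1/2 KO response difference and 22 between the KO lines. Of all genes, 3236 were then called higher and 3416 lower between the KO lines. For ISO in wildtype cells 155 and 62 were called, and for the response difference 94 and 22. Depth limits CHAC1 and VLDLR, whose counts were low; for CBS, the near-identical copy CBSL held most of the counts.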
